A study of Drosophila melanogaster with 3 samples.

Results

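The genes described here are 38 regulators of early patterning and of neural progenitors in Drosophila melanogaster, taken from a list of names and matched to the gene annotation, 37 by current symbol and 1, hairy (h), by its synonym. They make up 38 of the 13968 protein-coding genes on the major chromosome arms, and were divided by role into 19 segmentation genes and 19 neural progenitor genes. The data are peak lists of chromatin immunoprecipitation sequencing (ChIP-seq) with an anti-GFP antibody on whole embryos of 0 to 24 h. The embryos came from one transgenic strain expressing a fusion of Tango (tgo) with eGFP, and there was 1 group of 3 biological replicates. Every replicate carried the transgene, and an untagged strain was not analysed here, so peaks that do not depend on Tango cannot be told apart from those that do. Each list pools all tissues and all embryonic stages of its collection, and no expression was measured, so the cells and stages in which a gene is active could not be compared with its peaks.

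Segmentation genes divide the embryo along its long axis in a cascade: maternal gradients set the gap genes, gap proteins position the stripes of the pair-rule genes, and segment polarity genes keep the boundaries. In the ectoderm, proneural basic helix-loop-helix (bHLH) proteins select neuroblasts, the stem cells of the nervous system, and Snail-family, asymmetric division and glial factors then shape their daughters. Tango, a bHLH-PAS protein and the counterpart of vertebrate ARNT, pairs with partners such as Single-minded and Trachealess in the midline and trachea, and these pairs are known to bind sites with the core ACGTG.

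The sequence upstream of 4 members shows a region with a peak beside 3 without one, in these windows alone. Each line gives 100 bp around the position 150 bp upstream of the 5′ end, read towards the gene (dm6, minus strand for bcd, hb and gt, plus strand for ftz). Capitals mark GAGAG or CAGGTA, the cores of 2 early factors, and also any ACGTG or its variant GCGTG, on either strand. bcd (3R:6759566-6759665) held the summits of replicates 1 and 2, and the summit of replicate 3 lay closer to the gene in the same region. hb (3R:8697922-8698021), gt (X:2429067-2429166) and ftz (3R:6864124-6864223) held no thresholded summit.
bcd: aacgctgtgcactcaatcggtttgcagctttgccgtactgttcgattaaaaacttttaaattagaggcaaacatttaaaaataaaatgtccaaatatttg
hb: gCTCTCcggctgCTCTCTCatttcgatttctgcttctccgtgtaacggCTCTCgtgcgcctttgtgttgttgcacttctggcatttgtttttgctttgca
gt: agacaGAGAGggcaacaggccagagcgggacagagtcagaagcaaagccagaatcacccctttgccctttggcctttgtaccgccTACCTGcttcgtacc
ftz: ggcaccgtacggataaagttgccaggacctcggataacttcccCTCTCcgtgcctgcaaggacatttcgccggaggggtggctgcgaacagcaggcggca
The window of bcd was 33% GC and held none of the 4 motifs, while those of hb, gt and ftz were 50%, 57% and 62% GC and held GAGAG, the site of GAGA factor, and in gt also CAGGTA, the site of the early activator Zelda. The contrast does not extend to whole promoters: in the 250 bp before to 50 bp after the 5′ end, bcd also held GAGAG and GCGTG, and insc, the other member with a core region, held GAGAG and CAGGTA. D and mira had promoters of 28.7% and 35.7% GC and no core region.

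Further sequences show what lay under signals of 5 other members: the single-replicate peaks of wg and hh, the best candidate of scrt, and the regions beside slp2 and SoxN. Each line holds 100 bp centred on the summit, plus strand of dm6, with capitals for ACGTG or its variant GCGTG and for the E-box core bound by bHLH proteins, CANNTG, on either strand. They lie at 2L:7313556-7313655, 3R:23139657-23139756, 3L:3983456-3983555, 2L:3832472-3832571 and 2L:8834926-8835025, in the order of the lines.
wg, intron: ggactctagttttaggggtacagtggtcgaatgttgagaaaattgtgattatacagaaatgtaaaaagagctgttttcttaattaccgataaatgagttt
hh, intron: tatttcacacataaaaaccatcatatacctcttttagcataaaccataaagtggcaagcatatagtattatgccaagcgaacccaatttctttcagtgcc
scrt, upstream: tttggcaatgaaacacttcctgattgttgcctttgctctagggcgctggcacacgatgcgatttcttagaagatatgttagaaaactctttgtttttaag
slp2, flank: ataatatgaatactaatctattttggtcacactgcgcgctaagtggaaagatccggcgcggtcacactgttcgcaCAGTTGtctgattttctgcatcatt
SoxN, flank: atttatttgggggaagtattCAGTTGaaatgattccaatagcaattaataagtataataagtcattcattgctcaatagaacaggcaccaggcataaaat
None of the 5 windows held ACGTG or GCGTG. Over all 3463 core regions these occurred in only 5.52% and 5.40%, so their absence from 5 windows does not set these apart. The E-box core occurred once beside slp2 and once beside SoxN, in both as CAGTTG, and in none of the other 3. It occurred in 32.9% of all core regions. They were 33%, 35%, 40%, 43% and 31% GC. Other thresholded peaks, which are not printed, were richer in GC: the single-replicate peak of pros was 55% GC with GAGAG, and that of insc near its 5′ end was 56% GC with GAGAG and CAGGTA.

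The deposited thresholded lists held 3617, 4759 and 3027 peaks in replicates 1, 2 and 3, and end at an irreproducible discovery rate (IDR) of 0.01. The ranked lists, which also hold candidates below that threshold, had 35134, 75958 and 33491 entries. Summits within 150 bp were joined, which gave 3463 core regions, defined as regions in at least 2 of the 3 thresholded lists. A gene was counted where a summit lay in its body or the 2 kb upstream, called its territory. Signal is in unstated units, so its strength is given as the percentile within a list.

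Core regions were scarce at the patterning and neural progenitor genes. Only bcd and insc held one, 1 segmentation and 1 neural progenitor gene. That was 2 of 38 (5.26%, 95% Wilson interval 1.46 to 17.3%), against 23.1% of all protein-coding genes. Both were present in all 3 lists, again 5.26%, against 17.5% of all genes. A thresholded summit in at least 1 list was found at 5 members (13.2%; bcd, wg, hh, pros and insc), against 30.4% of all genes. By replicate, 2, 3 and 4 members had a thresholded summit, or 7.89% ± 2.63, against 23.9% ± 3.50 of all genes (SD, n = 3 each). In each replicate the share of the members, 5.26% to 10.5%, was below that of all genes, 20.3% to 27.2%. The replicates score the same 38 genes and are not separate samples of genes. With 1 group, no test between groups of samples exists, and these shares are descriptions with intervals for counting error only.

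The share was lower in each class of gene length. Of the 18 members with a territory up to 5 kb, 0 had a core region, against 15.6% of all genes of that length, and a count of 0 in 18 has a Wilson upper bound of 17.6%. Between 5 and 10 kb it was 1 of 13 (bcd), against 27.6%, and between 10 and 20 kb 1 of 6 (insc), against 39.1%. pros, the one member over 20 kb, had none, against 51.0% of such genes. The median territory was 5030 bp for the members and 4164.5 bp for all genes, so the members were not shorter. The members' Wilson interval held the share of all genes in each of the 4 classes.

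**Figure D1:**
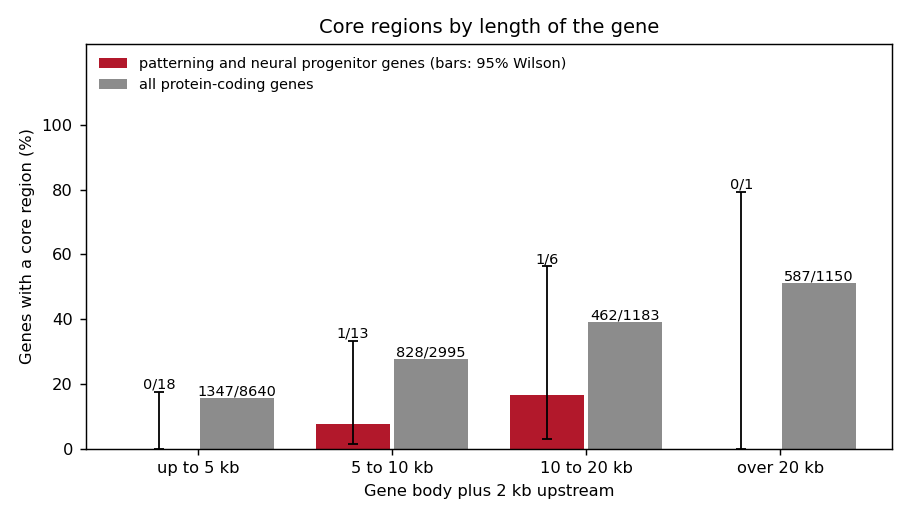
Percent of genes with a core region by length of the territory, for the 38 members (left bars, with 95% Wilson intervals) and all protein-coding genes (right bars), with counts above the bars. The members' bars are at 0 in the shortest and the longest class and below those of all genes in the classes between.

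Ranked candidates showed no uniform deficit at the same genes. A ranked candidate recurring in at least 2 lists was found at 28 of 38 members (73.7%; 14 segmentation and 14 neural progenitor genes), against 70.1% of all genes. Recurrence in all 3 lists was found at 10 (26.3%; bcd, hb, Kr, run, prd, wg, hh, pros, scrt and insc), against 43.2%. Over the merged territories, 322.6 kb for the members, the density of ranked candidates was 1.13, 0.867 and 1.20 times that of all genes in replicates 1, 2 and 3, or 1.07 ± 0.176 (SD, n = 3). The density of thresholded summits was 0.194, 0.297 and 0.476 times that of all genes, or 0.322 ± 0.143. The ratios of the ranked candidates lie on both sides of 1, and those of the thresholded summits are all below 0.5. Of the members' merged territories, 81148 bp belong to pros alone. Around start sites, between 1000 bp before and 200 bp after, ranked candidates were fewer in every replicate: 28.9%, 60.5% and 36.8% of the members had one in replicates 1, 2 and 3 (mean 42.1%), against 45.6%, 69.4% and 48.2% of all genes (mean 54.4%). The share with a recurrent candidate also depended on the setting. With summits within 50 bp it was 47.4% of the members, against 60.1% of all genes, and with the gene body alone 55.3%, against 46.0%.

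Fewer of the members' candidates passed the threshold. In replicate 1, 2 of 96 candidates in the territories of the members passed (2.08%), against 12.3% of candidates in any territory. In replicate 2 it was 4 of 177 (2.26%), against 6.76%, and in replicate 3 it was 4 of 101 (3.96%), against 10.2%. The long gene pros alone held 31, 43 and 25 of the members' candidates in replicates 1, 2 and 3, so these pooled shares lean on it. The middle of the distribution differed less. The median signal percentile of the members' candidates was 48.8, 48.0 and 47.6 in replicates 1, 2 and 3, against 51.1, 50.6 and 50.6 for candidates of all territories. Ranked list 2 was more than 2 times as long as either of the other lists, and a percentile in it is not the same height as in the others.

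The best candidate of each gene shows how the members spread. Its percentile, averaged over the 3 lists with 0 where a list had no candidate, had a median of 49.2 over the members (quartiles 34.1 and 69.5), against 56.3 over all genes (29.4 and 89.5). The upper quartiles differ by more than the medians, and the lower quartile of the members is the higher one. The median was 51.7 for the segmentation genes and 41.5 for the neural progenitor genes. In territories up to 5 kb it was 38.8 for members and 43.2 for all genes, between 5 and 10 kb it was 51.7 and 70.3, and between 10 and 20 kb it was 87.5 and 86.0. The members from 5 to 10 kb thus had a lower median than other genes of that length. The 6 members from 10 to 20 kb had a similar median, but not in each replicate. It was 81.5, 90.6 and 88.1 in replicates 1, 2 and 3, against 85.0, 93.6 and 84.3 for all such genes. Their upper quartile was 89.1, against 95.5. With the gene body alone the order turned, at 34.4 for members and 28.2 for all genes.

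**Figure D2:**
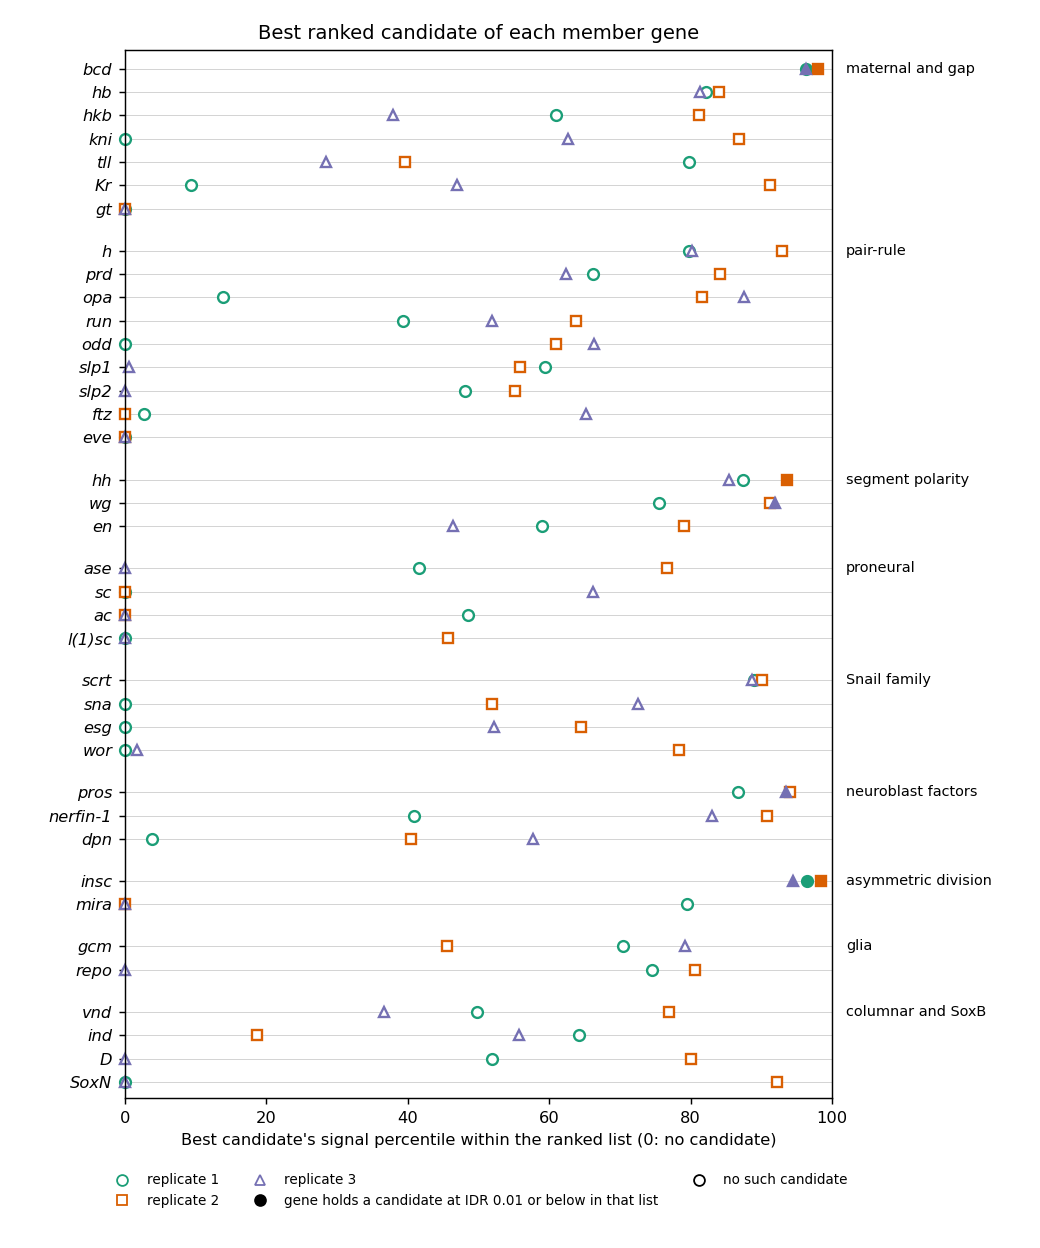
Signal percentile of the best ranked candidate in the territory of each of the 38 members, by replicate and grouped by role; filled points mark lists in which the gene holds a candidate at IDR 0.01 or below. bcd and insc are filled in all 3 lists, hh, wg and pros in 1, and eve and gt sit at 0 in all 3.

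Among the maternal and gap genes, bcd stood alone. bcd encodes Bicoid, the anterior morphogen whose RNA is laid down by the mother. Its peak, at 3R:6759446-6759785 (dm6), had its summits 151, 150 and 73 bp upstream of the 5′ end in replicates 1, 2 and 3. Its signal stood at the 65.4, 69.7 and 60.6 percentile of the thresholded lists (65.2 ± 4.53, SD, n = 3), and at 96.3, 98.1 and 96.3 of the ranked lists. The 3 replicates were close together, and their −log10 IDR was 4.79, 4.78 and 4.03, where 2 is the threshold. The window at the summit of replicate 2, printed above, held no ACGTG. Another core region lay farther upstream of bcd, outside its territory but within 10 kb of it, and was not counted for bcd. It passed the threshold in replicates 2 and 3, at percentiles 96.8 and 97.3 of the ranked lists. In replicate 1 its candidate stood at 90.4 and did not pass.

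The 6 other genes of this tier had no thresholded summit in any list. hb, the gap repressor Hunchback that Bicoid activates, had best percentiles of 82.3, 84.0 and 81.4. These were alike between replicates but came from different places, since its one candidate shared by all 3 lists, 1636 bp upstream, stood at 30.5, 34.8 and 81.4. gt, a bZIP repressor, had no candidate in any ranked list. The zinc-finger genes Kr and hkb and the nuclear receptor genes kni and tll had averages between 49.2 and 60.0. Their replicates were far apart, since Kr ranged from 9.34 to 91.2 and kni had no candidate in replicate 1.

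No pair-rule gene held a thresholded summit. h, which encodes the bHLH repressor Hairy, came highest at 79.7, 93.0 and 80.3, and prd, the Pax-type activator Paired, followed at 66.2, 84.2 and 62.4. The candidate of h 656 bp upstream recurred in replicates 2 and 3 at −log10 IDR of 0.943 and 0.820, below the threshold of 2. eve, the homeodomain repressor Even-skipped, had no candidate in any list, in a territory of 3477 bp. The other 6, opa, run, odd, slp1, slp2 and ftz, averaged between 22.7 and 61.0, and ftz, odd and slp2 each lacked a candidate in 1 list. Over the 9 genes the median was 42.5, against 49.8 for the 7 maternal and gap genes.

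The segment polarity genes reached the edge of the threshold. wg, the Wnt ligand Wingless, had best percentiles of 75.5, 91.2 and 92.0. Its intronic candidate 6447 bp downstream of the 5′ end was present in all 3 lists with −log10 IDR of 0.233, 1.58 and 2.60. Only replicate 3 passed, at 2L:7313431-7313780. hh, the ligand Hedgehog, had best percentiles of 87.4, 93.6 and 85.4. Its peak at 3R:23139537-23139876, in an intron 2199 bp downstream of the 5′ end, was thresholded in replicate 2 alone, at percentile 10.4 of that list. At the laxer IDR of 0.05, wg and hh counted as having a core region. en, the homeodomain protein Engrailed, averaged 61.5 ± 16.5 with no thresholded summit.

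The proneural genes were the lowest of the 9 roles, with a median of 19.1 over 4 genes, in which a list without a candidate counts as 0. Their territories were short, from 2917 to 4430 bp. In territories up to 5 kb the median was 38.8 over members and 43.2 over all genes. ac had a candidate in replicate 1 alone, at percentile 48.5, and its best −log10 IDR was 0.0666. sc had a candidate in replicate 3 alone, at 66.3, and l(1)sc in replicate 2 alone, at 45.7. Each of the 3 was therefore absent from 2 of the 3 ranked lists. ase, the neuroblast member of the achaete-scute complex, had 41.6 and 76.7 in replicates 1 and 2 and none in replicate 3. These bHLH proteins belong to the same large family as Tango, without the PAS domain.

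Of the Snail-family zinc fingers, scrt came closest to the threshold. Its candidate 390 bp upstream was present in all 3 lists at 88.9, 90.1 and 88.6 (89.2 ± 0.763, SD, n = 3). The percentiles were nearly equal, but the −log10 IDR was 1.90, 0.186 and 1.93, under the threshold of 2 in all 3 and far under it in replicate 2. scrt counted as having a region in the authors' conservative list and at IDR 0.05. esg, sna and wor, a cluster of neuroblast and mesoderm regulators, averaged 38.9, 41.5 and 26.7, and none had a candidate in replicate 1.

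Among neuroblast factors, pros was highest. It encodes the homeodomain protein Prospero, which is handed to the daughter cell that leaves the stem cell state. Its best percentiles were 86.8, 94.1 and 93.5, and its peak at 3R:11392815-11393164, in the 3′ UTR, was thresholded in replicate 3 alone. pros spans 79148 bp, and its average of 91.4 differed from the median of 91.0 for genes over 20 kb by less than the spread of its replicates (SD 4.05). nerfin-1, a zinc finger that keeps neurons differentiated, had 40.9, 90.9 and 83.1, and dpn, a bHLH repressor of neuroblasts, averaged 34.0 ± 27.5.

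Asymmetric division gave the other core region. insc, which encodes the adaptor Inscuteable that orients the neuroblast spindle, held it at 2R:20830999-20831130, 4945 bp downstream of its 5′ end in an intron. Its signal stood at percentiles 66.5, 76.6 and 40.8 of the thresholded lists (61.3 ± 18.5, SD, n = 3), with replicate 3 the lowest. The same summit lies in sktl, a lipid kinase gene that overlaps insc, and the start of sktl is closer, at 1335 bp, so the region cannot be given to insc alone. A second insc peak, 61 bp upstream of its own 5′ end, was thresholded in replicate 2 alone, at percentile 7.86. mira, the adaptor that carries Prospero, had a candidate only in replicate 1, at 79.5.

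The glial and columnar genes held no thresholded summit. gcm, the switch to glial fate, averaged 65.1 ± 17.5, and repo, the homeodomain protein of most glia, had 74.5 and 80.6 in replicates 1 and 2 and none in replicate 3. vnd and ind, which mark columns of the neuroectoderm, averaged 54.5 and 46.2. Of the SoxB genes, D averaged 44.0, and SoxN had a candidate in replicate 2 alone, at 92.2.

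**Figure D3:**
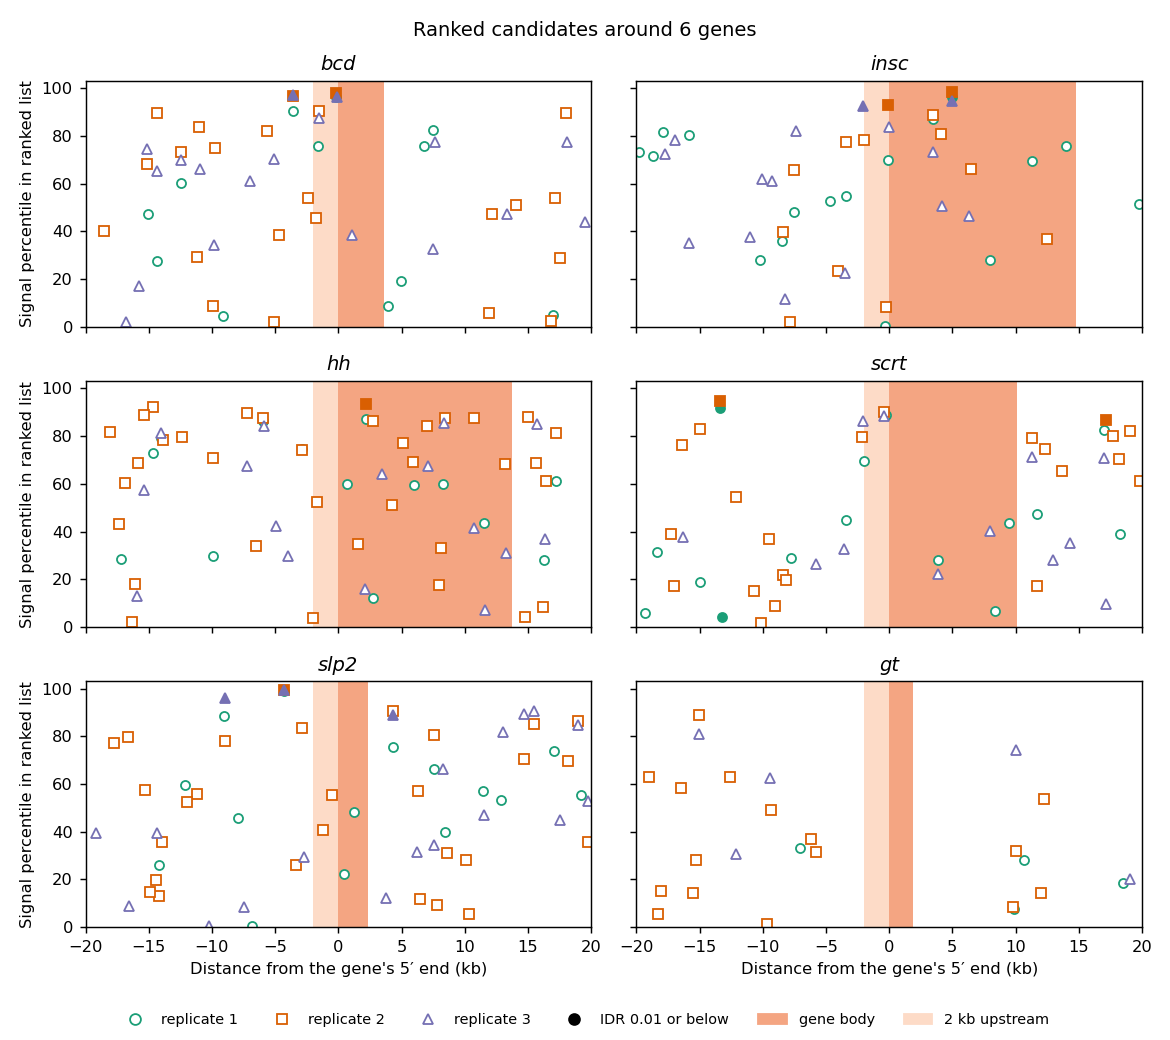
Ranked candidates within 20 kb of the 5′ end of 6 genes, with distance in kb along the direction of transcription and signal percentile in the ranked list; filled points are at IDR 0.01 or below. bcd has filled points 151, 150 and 73 bp upstream in replicates 1, 2 and 3, slp2 has them 4318 bp upstream outside the shaded territory, and the territory of gt is empty. bcd also has filled points farther upstream, outside its territory, in replicates 2 and 3, at percentiles 96.8 and 97.3. slp2 has further filled points outside its territory in replicate 3. The filled points of insc, hh and scrt are not listed here.

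The scarcity reached beyond the genes themselves. In the 5 kb on each side of the territories the density was 10.5 core regions per Mb, against 38.2 around all genes, and from 5 to 10 kb it was 23.7 against 36.1. From 10 to 20 kb it was 30.3 against 35.2, and from 20 to 50 kb 32.0 against 32.2. Within the territories themselves it was 6.20 per Mb (exact Poisson interval 0.751 to 22.4, from 2 regions). All genes had 35.2 when regions were counted for each gene, and 30.4 over merged territories. The density around the members thus rose outwards, and from 20 to 50 kb it was near that around all genes. The bands up to 20 kb rest on 4, 9 and 23 regions and carry no intervals. The distance at which the densities meet is therefore not resolved. Territories and flanks of neighbouring genes overlap, and their regions were counted for each gene except over merged territories.

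**Figure D4:**
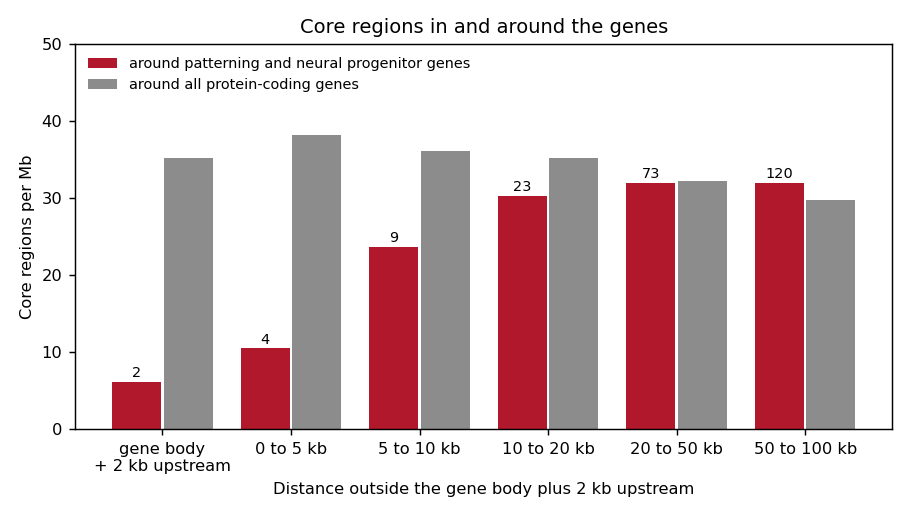
Core regions per Mb in the territory and in bands outside it, around the 38 members (left bars, with the number of regions) and around all protein-coding genes (right bars). The members' bars run 6.20, 10.5, 23.7, 30.3, 32.0 and 32.0 outwards, and those of all genes stay between 29.7 and 38.2.

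Measured from the edge of the territory, the nearest core region lay at a median of 15403 bp for the members, against 6956 bp for the 13945 genes on arms with core regions. It was within 10 kb for 13 members (34.2%), against 57.2% of those genes. Of the 36 members whose nearest region lay outside, 20 had it in the promoter of another gene, from 1000 bp upstream to 200 bp downstream of its start, and 6 had a region whose nearest start site was their own. These 6 were h, ftz, odd, slp2, wg and SoxN, of which 5 are segmentation genes. The same counts were not made over all genes, so they do not set the members apart.

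The strongest of these 6 was the region beside slp2, a forkhead factor of the pair-rule tier. At 2L:3832397-3832648 it stood at percentiles 88.7, 92.4 and 94.2 of the thresholded lists (91.7 ± 2.83, SD, n = 3), between slp1 and slp2, 6847 bp downstream of the 5′ end of slp1 and 4318 bp upstream of that of slp2. It was also the nearest for slp1, so both genes share it. The region of SoxN, 9331 bp downstream of its 5′ end at 2L:8834806-8835145, stood at 51.8, 73.9 and 64.4. That of odd, 8066 bp downstream of its 5′ end, stood at 5.30, 29.1 and 52.0, and its 3 lists spread widely. The regions of h, wg and ftz were in 2 lists each, at mean percentiles of 33.3, 32.8 and 33.7.

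The nearest core region of several members lay in the promoter of another gene, mostly at a distance. It was strongest for eve, repo, ase and pros, and averaged 86.2 for gcm and 81.7 for prd. That nearest to ase, 30808 bp away at the promoter of CG17896, averaged 94.8 ± 3.58. The nearest region to eve, 17406 bp away, stood at 98.9, 98.6 and 98.6 in the promoter of Pal1, an enzyme of peptide amidation. That nearest to repo, 13803 bp away at the promoter of CG7183, averaged 98.5 ± 0.685. That nearest to pros, 2337 bp away at the promoter of Irbp, the Ku70 subunit of DNA repair, averaged 94.0 ± 1.91. In the achaete-scute complex, ac, sc and l(1)sc shared one nearest region, at the promoter of CG3777, which lay 29701, 55730 and 69391 bp from them. It was of middling strength, at 49.6 ± 14.4. wor and sna shared another, at the promoter of lace, a gene of sphingolipid synthesis, 71466 and 18786 bp away, at 59.4 ± 6.81.

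The promoters of the members differed in sequence from those of other genes. From 250 bp before to 50 bp after the 5′ end they averaged 51.7% GC (53.6% in the segmentation and 49.9% in the neural progenitor genes), against 39.1% in all genes. GAGAG occurred in 29 of 38 (76.3%), against 29.7% of all promoters, and CAGGTA in 15 (39.5%), against 6.24%. TATCGA, the core of the element bound by DREF, occurred in 1 (2.63%; vnd), against 27.7%. ACGTG occurred in 4 (10.5%; slp2, esg, pros and sna), against 23.2%, GCGTG in 21 (55.3%), against 26.2%, CANNTG in 24 (63.2%), against 77.2%, GATAA in 12 (31.6%), against 55.1%, and TATAA in 17 (44.7%), against 65.2%. Motifs were searched as written on both strands. CACGTG holds both ACGTG and CANNTG, and TATCGA and GATAA share bases where they lie side by side. A match is a description of these letters and not of a site in use.

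Composition moved with these shares. Among genes with a promoter of 50% GC or more, where 26 of the 38 members lie, GAGAG occurred in 73.1% of the members and 56.4% of all genes, CAGGTA in 42.3% and 7.69%, and TATCGA in 0 and 8.49%. The gap in CAGGTA was thus as wide within that class as over all promoters, and the gaps in GAGAG and TATCGA were narrower.

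Core regions counted anywhere in the territory varied little with promoter composition over the genome. Under 40% GC, 0 of 2 members had a core region, against 24.0% of all genes, and from 40 to 50% it was 2 of 10 (bcd and insc), against 21.8%. At 50% or more it was 0 of 26, against 21.6%. The genes with a GC-rich promoter held core regions in the territory about as often as others, and none of the members with one did. These counts do not separate peaks at the promoter from others, nor short territories from long ones. The count of 0 in 26 carries no interval. The 1632 genes with a core region from 300 bp upstream to 50 bp downstream of the start had promoters averaging 36.9% GC, against 39.1% in all genes. TATCGA occurred in 36.2% of those promoters, against 27.7%.

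**Figure D5:**
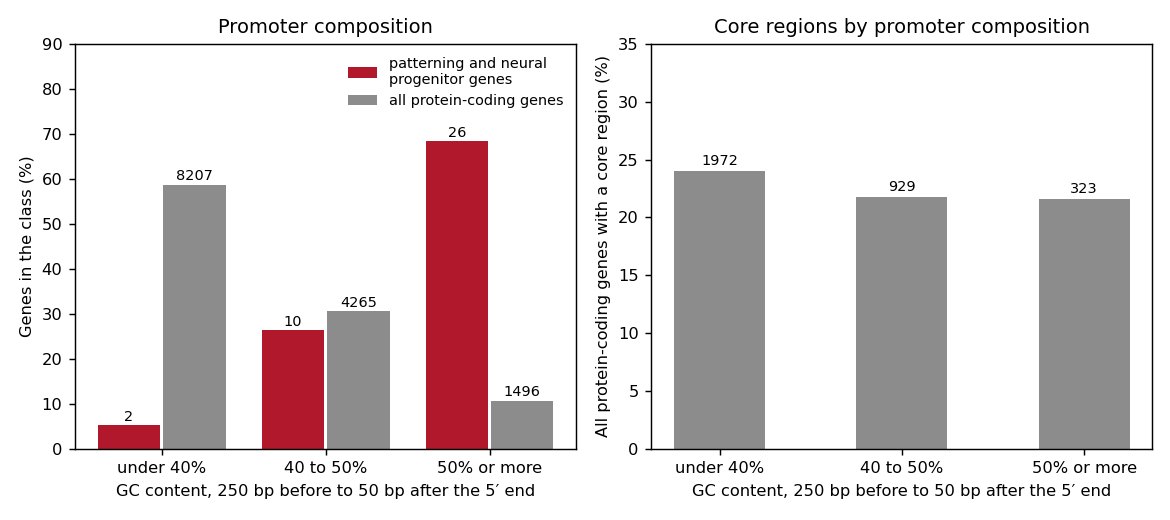
Left, percent of the 38 members (left bars) and of all protein-coding genes (right bars) in 3 classes of promoter GC content, with counts above the bars. Right, percent of all protein-coding genes with a core region anywhere in the territory in the same classes. It runs between 21.6% and 24.0%, while 68.4% of the members fall in the highest class.

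GC at the summits was higher for the members' candidates and lower for candidates past the threshold. The 100 bp at ranked candidates in the territories of the members averaged 49.0% ± 0.314 GC, against 44.5% ± 0.419 at candidates of all territories (SD over 3 replicates). Candidates past the threshold averaged 32.0% ± 0.946, and the other candidates 45.7% ± 0.273. The core regions of bcd and insc were at 33% and 30%. Of the 4 thresholded summits found at members in 1 list each, those of wg and hh were at 33% and 35%, and those of pros and insc at 55% and 56%. Whether base composition has a part in the scarcity of core regions was not tested. Of 79 recurrent candidates in the territories of the members, 22 lay in pros. ACGTG occurred in 3.80% of the 79, against 8.61% over all territories. CANNTG occurred in 49.4%, against 40.6%, and GAGAG in 24.1%, against 12.3%.

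A pair of wider lists of the same pathways, which are not members, more often had a core region in the territory than the members. Of 30 other patterning genes 8 had one (26.7%, 95% Wilson interval 14.2 to 44.4%), and of 32 other neurogenesis genes 13 (40.6%, 25.5 to 57.7%), against 23.1% of all genes. Their median territories, 11289 and 12198.5 bp, were longer than the 5030 bp of the members, and the difference between lists was not tested. Of all genes with a territory of 10 to 20 kb, 39.1% had a core region. From 300 bp upstream to 50 bp downstream of the start, 1 of the 30 patterning and 5 of the 32 neurogenesis genes had one. So did 1 of the 38 members and 1632 of all 13968 genes. The strongest patterning genes were nkd, an antagonist of Wnt signalling (mean percentile of 83.7 ± 8.08, SD, n = 3), dpp and sog, a BMP ligand and its antagonist (80.8 ± 8.15 and 71.7 ± 18.7), brk, a repressor of dpp targets (65.4 ± 1.22), and cnc (55.6 ± 10.7). The region of nos, in 2 lists at 29.0 and 33.3, lies closer to the start of CG11779, at 97 bp, so it cannot be given to nos alone. The strongest neurogenesis genes were baz (98.4 ± 0.379), the Par3 polarity protein, elav (96.9 ± 0.835), an RNA-binding protein of neurons, neur (95.8 ± 1.59), brat (95.5 ± 1.74) and numb, the inhibitor of Notch (94.3 ± 1.40). That of N, the Notch receptor (89.5 ± 1.63), is intronic, and the nearest start site is that of CG18508. insc works with baz at the apical cortex of neuroblasts, and its region, at 61.3 ± 18.5, stood below that of baz in every replicate.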

How the data were processed

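Anti-GFP ChIP-seq peak lists of 3 replicates were analysed. Per the deposited readme, each replicate has a thresholded and a ranked list on dm6, derived from its filtered alignments and a control. No source used here names the aligner, the peak caller or the read depth. The deposited signal of each peak is the authors' enrichment in unstated units and was used as a percentile within each list. The deposited score is the scaled IDR, and ranked lists as deposited hold the global IDR as −log10. The authors' summit offset placed each peak. The authors' conservative list served as an alternative, and 7 other whole-series lists were not used, because no source names the replicates behind them.

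Thresholded summits within 150 bp were clustered by single linkage, and clusters from at least 2 of 3 lists were core regions. Ranked candidates were joined in the same way. Territories came from Ensembl release 115 (BDGP release 6), sequence from the matching NCBI assembly, and the 1 older symbol from a gene table. Python 3.11.15, numpy 2.4.6, pandas 2.3.3 and scipy 1.17.1 were used, and joining was tested on simulated data. Shares carry 95% Wilson and densities exact Poisson intervals, which cover counting error only. Labels call the samples biological replicates without saying how they were collected, so the spread between them may be partly technical.

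The members and lists were chosen with earlier results of these data known. Values by replicate are given for members with a thresholded summit and for the 5 others with the highest and the 5 with the lowest mean best percentile, and a mean with its SD for up to 6 genes of each wider list. Alternatives changed the demand on replicate lists, the threshold, the joining distance, the territory and the replicates used.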

Additional observations from a re-analysis of the deposited data

How the results depend on the processing

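Under no alternative run did the share of members with a core region reach that of all genes. Members with a core region stayed at 2 (bcd and insc) in all 3 lists, above the median signal, with summits within 50 bp, with overlapping intervals and with each replicate left out in turn. The shares of all genes without a replicate ran from 17.9% to 21.4%, and were 17.5% in all 3 lists and 14.4% above the median signal. The authors' conservative list gave 4 members (2 segmentation, 2 neural progenitor; hh and scrt were added), against 28.8% of all genes, and IDR 0.05 gave 5 (3 and 2; wg, hh and scrt), against 26.9%. The gene body alone gave 1 (insc, so 0 segmentation genes), against 9.63%, start sites within 1 kb gave 1 (bcd, so 0 neural progenitor genes), against 17.4%, and the body with 10 kb on either side gave 11 (5 and 6), against 54.9%. Members with a recurrent ranked candidate numbered 28 (73.7%, against 70.1% of all genes). With a replicate left out they numbered 14 to 19 (36.8% to 50%), against 47.5% to 58.2% of all genes and below it each time. In all 3 lists they were 10 (26.3%), against 43.2%, at 50 bp 18 (47.4%), against 60.1%, and at start sites within 1 kb 17 (44.7%), against 56.2%, so the share was above that of all genes only in the setting reported, in the gene body (55.3%, against 46.0%) and with 10 kb on either side. The median best percentile was 26.2 for members and 39.4 for all genes at start sites within 1 kb, 84.7 and 92.7 with 10 kb on either side, and 34.4 and 28.2 in the body alone, where the order of members and all genes reversed. Taken singly, 40 of the alternative values were close to those reported and 32 moved. Causes were not tested. Read depth is unknown, so a gene without a core region may hold signal that these lists do not resolve, and 2 called genes leave a wide interval.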
